A study of Mus musculus with 17 samples.

Results

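The prohormone convertases, carboxypeptidase E, their binding proteins and the granins of the pancreatic islet were followed as 10 genes, *Pcsk1*, *Pcsk2*, *Cpe*, *Pcsk1n*, *Scg5*, *Chga*, *Chgb*, *Scg2*, *Scg3* and *Vgf*. They were chosen by name, as the processing enzymes and granins of the secretory granule, out of 78239 gene identifiers in one deposited table and 73212 in another. All 10 passed the filter on low counts in both tables. The islets of 17 male mice were profiled by bulk RNA-seq. In the first table, wildtype (WT) and *Pax4* R192H mice were 12 weeks old on a standard chow diet (SCD), or 16 weeks old after 4 weeks of a high-fat diet (HFD), with 3 mice in each of the 4 groups. The *Pax4* R192H mice are homozygous for a knocked-in R200H allele of the mouse gene, which stands for human R192H, and they were littermates of the wildtype mice on a C57BL6/N background. In the second table, 2 control and 3 *Pax4* βiKO mice were 20 weeks old after 8 weeks of HFD. Both carried homozygous floxed *Pax4* and received tamoxifen, and only the *Pax4* βiKO mice carried *Pdx1*-CreERT2, which is active in β cells and in other cells that express *Pdx1*. Diet and age therefore changed together in the first table, and Cre and the loss of *Pax4* changed together in the second, so that neither pair can be told apart.

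Each expected count table was normalized on its own by the TMM method of edgeR, and values are CPM, the counts scaled to a fixed size of the normalized library. Totals ranged from 24268157 to 42679645 counts per mouse, and *Pax4* was listed at 0 in all 17 libraries. The paper detected *Pax4* mRNA at a low level in adult islets by quantitative RT-PCR and used that method to check the knockout. The counts here therefore cannot show whether *Pax4* is expressed or was lost. *Esr1*, whose ligand-binding domain is part of CreERT2, had 16 and 19 counts in the control mice and 7648 to 9732 in the *Pax4* βiKO mice. In the first table, 2 identifiers that the annotation does not name took 36.2% to 53.3% of the counts of a library. Among the 25 acinar markers, whose summed level was 15115 to 29758 CPM in wildtype and 15274 to 21717 CPM in *Pax4* R192H mice on SCD, the sum was 18522 to 28954 CPM in wildtype and 42893 to 112692 CPM in *Pax4* R192H mice on HFD. The β cell markers, which define the labelled tissue, were at 0 in no group. Unless another tool is named, p-values are from edgeR's quasi-likelihood test, adjusted by Benjamini-Hochberg over all genes tested, and a gene was called at an adjusted p below 0.05 with an absolute log2 fold change above 0.5. The 95% intervals and standard errors (SE) come from the same fit.

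Islet hormones are made as precursors and cut to their active form inside the dense-core secretory granule. Prohormone convertases cleave after pairs of basic residues, carboxypeptidase E removes the exposed basic residues, and 7B2 (the product of *Scg5*) and proSAAS (the product of *Pcsk1n*) bind the convertases. Granins are acidic, calcium-binding proteins that help to condense the cargo and form the granule, and several of them are themselves cut into peptides. Insulin is processed by PC1/3 and PC2 in β cells, while glucagon is released by PC2 in α cells.

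Per length of exon sequence, *Scg2* and *Chga* stood highest and *Vgf* lowest in every group. On the scale of CPM per kilobase, the levels in wildtype mice on SCD were 1778 ± 449.9 for *Scg2*, 1336 ± 307 for *Chga* and 574 ± 78.8 for *Cpe* (mean ± SD, n = 3). *Scg2* and *Chga* differed there by less than the larger of their SDs. The next 4 were *Scg5* at 257 ± 25.6, *Pcsk2* at 253 ± 34.9, *Chgb* at 208 ± 52.4 and *Scg3* at 199 ± 13.8 CPM per kilobase, and neighbours among these 4 differed by less than the larger of their SDs. *Pcsk1* followed at 123 ± 18.1, *Pcsk1n* at 21.7 ± 3.41 and *Vgf* at 1.12 ± 0.286 CPM per kilobase. The *Vgf* values rest on 89 to 714 counts per library.

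**Figure D1:**
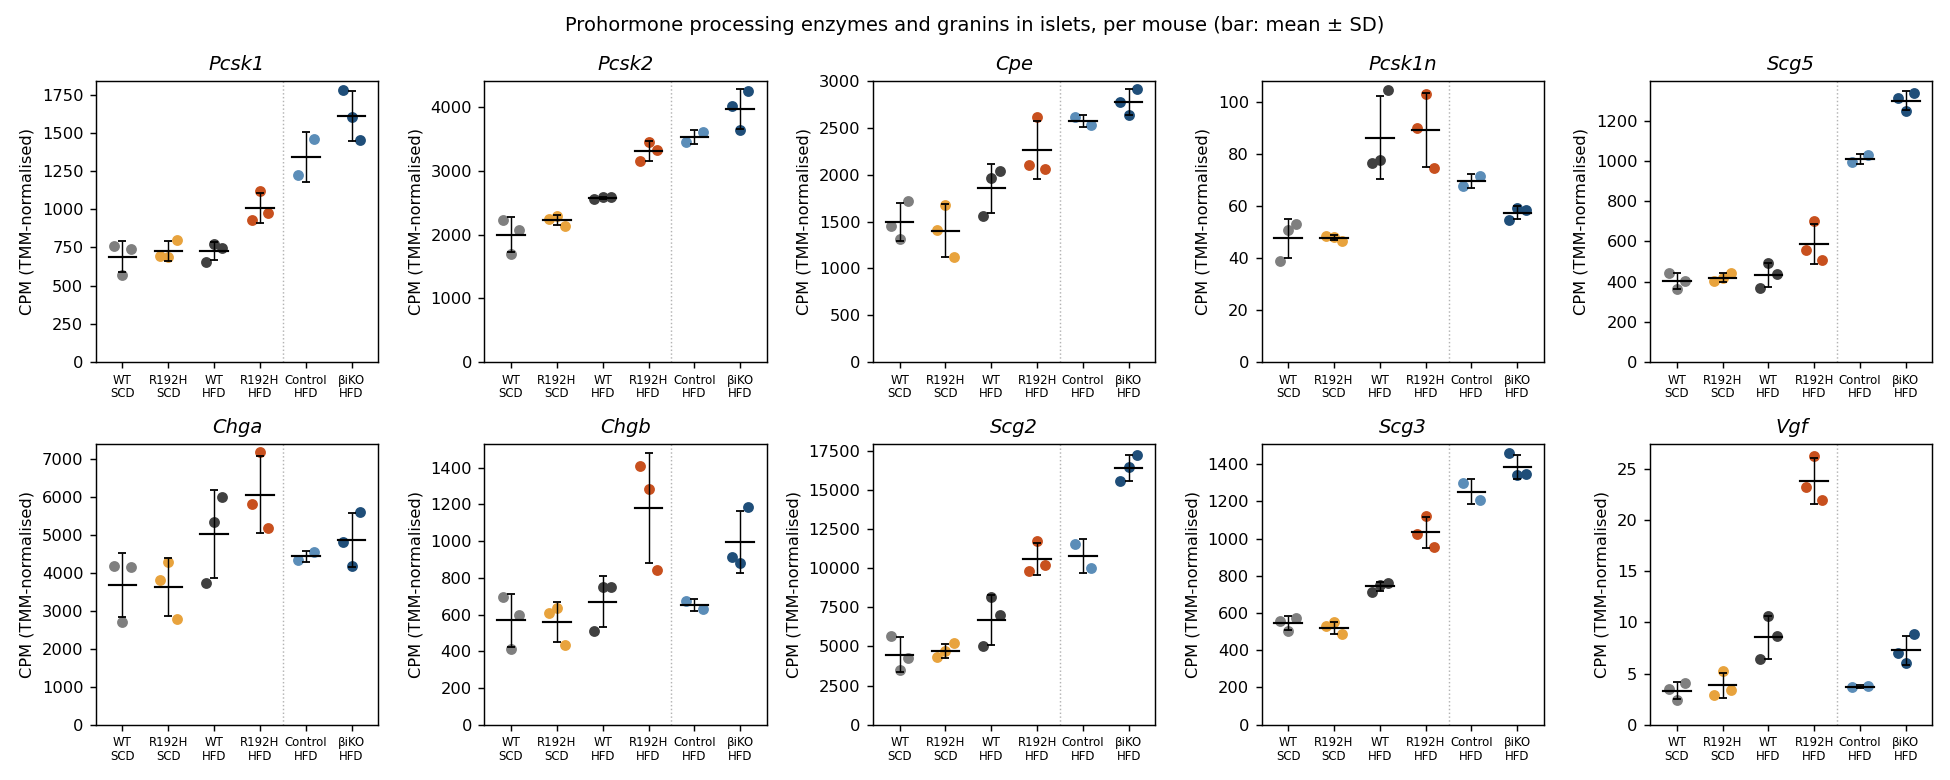
TMM-normalised CPM of the 10 genes, 1 panel a gene, with 1 point a mouse and the mean ± SD as bars; the 4 groups left of the dotted line are from the first table and the 2 groups right of it from the second, which was normalized separately. *Vgf* sits at 22.0 to 26.3 CPM in *Pax4* R192H mice on HFD, above the 6.40 to 10.6 CPM of wildtype mice on HFD.

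The start regions of *Scg2*, *Chgb*, *Pcsk1* and *Chga* are shown because cyclic AMP response elements (CRE) near the start site are known in several granule genes. RefSeq start regions (GRCm38.p6, from 250 bases before to 50 after the start) matched 8 of the 10 genes. There was no region for *Cpe* and *Vgf*, which were therefore not searched. The palindromic CRE TGACGTCA, searched on both strands, was found in 3 of these 8, those of *Scg2*, *Chgb* and *Pcsk1*, and in 1.79% of all 32851 start regions. It begins 68 bases before the start in *Scg2*, 72 before it in *Chgb* and 78 before it in *Pcsk1*. The shorter half-site TGACG, on either strand and including the full sites, was found in 7 of the 8, in all but *Pcsk1n*, and in 20.8% of all start regions. The sequence TATAAA of the TATA box, on the gene's strand, was found only in *Chga* among the 8, and in 8.32% of all. It begins 5 bases after the RefSeq start of *Chga*, but before the gene start of the GENCODE M21 annotation at chr12:102554969. The annotations thus place it on different sides of the start. These matches describe letters and not binding. In the 4 sequences, capitals mark the CRE in the first 3 and TATAAA in the last.
Scg2 (chr1:79439977-79440276, minus strand): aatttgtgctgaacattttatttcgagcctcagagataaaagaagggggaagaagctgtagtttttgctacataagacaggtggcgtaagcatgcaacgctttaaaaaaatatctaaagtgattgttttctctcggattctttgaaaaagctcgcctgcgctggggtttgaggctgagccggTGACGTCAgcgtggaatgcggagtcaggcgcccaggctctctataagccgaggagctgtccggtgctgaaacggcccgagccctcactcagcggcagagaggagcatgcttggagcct
Chgb (chr2:132781392-132781691, plus strand): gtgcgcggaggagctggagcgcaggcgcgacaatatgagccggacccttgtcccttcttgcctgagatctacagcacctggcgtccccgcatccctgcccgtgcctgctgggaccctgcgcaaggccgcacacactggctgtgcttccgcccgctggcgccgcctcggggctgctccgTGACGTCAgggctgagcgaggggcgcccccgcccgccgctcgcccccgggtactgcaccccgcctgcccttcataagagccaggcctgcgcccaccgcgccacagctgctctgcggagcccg
Pcsk1 (chr13:75089607-75089906, plus strand): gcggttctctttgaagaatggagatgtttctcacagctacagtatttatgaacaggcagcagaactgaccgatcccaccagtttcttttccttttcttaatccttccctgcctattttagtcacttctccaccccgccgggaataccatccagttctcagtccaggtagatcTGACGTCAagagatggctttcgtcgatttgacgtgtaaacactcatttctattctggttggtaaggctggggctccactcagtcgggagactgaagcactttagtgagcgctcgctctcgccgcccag
Chga (chr12:102554691-102554990, plus strand): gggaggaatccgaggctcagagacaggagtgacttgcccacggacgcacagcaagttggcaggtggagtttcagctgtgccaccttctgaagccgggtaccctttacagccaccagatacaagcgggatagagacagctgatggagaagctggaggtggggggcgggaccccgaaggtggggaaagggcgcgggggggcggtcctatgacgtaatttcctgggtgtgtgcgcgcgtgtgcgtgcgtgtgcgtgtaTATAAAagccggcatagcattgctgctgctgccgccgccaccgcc

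The central question was whether the *Pax4* R192H allele changed these genes under metabolic stress. On HFD, all 10 genes had a positive log2 fold change for *Pax4* R192H against wildtype after TMM normalization, while 4 of them (*Pcsk2*, *Cpe*, *Pcsk1n* and *Chga*) turned negative under scaling by the total count. The median was 0.46, beside -0.01 over all 19137 genes tested. Only *Vgf*, a neuroendocrine precursor of secreted peptides, was called, with a 2.79-fold higher level, where 2.28% of all genes were called and 1.46% were called higher. Those 437 calls over all genes became 93 to 157 when any 1 of 5 of the 6 mice was left out, fewest without the third wildtype mouse, and 498 without the second wildtype mouse. In 8 of the 10 genes every *Pax4* R192H mouse lay above every wildtype mouse, as it did for 13.0% of all genes, and 7 of the 10 had an unadjusted p below 0.05, as did 15.9% of all. Both counts depend on the scaling. Under total-count scaling 2 of the 10 (*Chgb* and *Vgf*) did not overlap, beside 3.21% of all genes, and 1 (*Vgf*) had an unadjusted p below 0.05, beside 29.0% of all. With DESeq2, *Vgf*, *Chgb* and *Scg2* were called, 3 of the 10 beside 5.39% of the 17059 genes it tested. In bulk islets, fewer cells of a type and less RNA per cell cannot be told apart.

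Markers of acinar cells moved with this comparison. All 25 had a positive log2 fold change and 10 of them were called higher. With their level as a covariate the median of the 10 granule genes was again 0.46, and none of all the 19137 genes was called. *Vgf* then had a log2 fold change of 1.25 (SE 0.40, adjusted p = 0.629), and *Chgb* had 0.59 in place of 0.81. The marker sums of the HFD groups did not overlap, and the part of acinar RNA in the result was otherwise not tested. β cell markers differed as well. The sum of the 9 was 64954 to 93323 CPM in wildtype and 99026 to 110149 CPM in *Pax4* R192H mice on HFD. Their mean log2 CPM went the other way, at 9.89 to 10.16 in wildtype and 9.64 to 9.85 in *Pax4* R192H mice on HFD, without overlap, and 1 of the 9, *Slc2a2*, which encodes the glucose transporter GLUT2, was called lower there at -1.28 (SE 0.19, adjusted p = 0.00588). Sums of the 2 PP cell markers, at 1657 to 3033 CPM against 1151 to 1602 CPM in wildtype mice, and of the 7 duct markers, at 127 to 135 CPM against 80.6 to 98.99 CPM, did not overlap either, and none of these 9 was called. The part of the β, PP and duct cell markers in the result was not tested. Without the third wildtype mouse on HFD the adjusted p of *Vgf* was 0.0546, and without the second *Pax4* R192H mouse on HFD it was 0.0516, with log2 fold changes of 1.49 and 1.40.

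Between the same genotypes on SCD, no gene of the 10 was called with edgeR or DESeq2, and none had an unadjusted p below 0.05, where 0% and 3.29% of all genes were called with edgeR or had such a p, and DESeq2 called 0.104% of the 22152 genes it tested. The log2 fold changes ran from -0.09 for *Cpe* to 0.21 for *Vgf*, and in all 10 the mice of the genotypes overlapped. The 95% interval for *Vgf* on SCD was -0.35 to 0.77, which leaves out the 1.48 measured on HFD. The interaction of genotype and diet, the test of that difference, called none of the 10 (0.131% of all genes, or 25, were called, from 0 without the second *Pax4* R192H mouse on HFD to 101 without the second wildtype mouse on HFD), and 3 of the 10 had an unadjusted p below 0.05 (11.2% of all). These were *Vgf* at 1.27 (SE 0.36, adjusted p = 0.185), *Chgb* at 0.84 (SE 0.35, adjusted p = 0.381) and *Scg3* at 0.54 (SE 0.18, adjusted p = 0.253). DESeq2 called *Vgf* and *Scg3*, 2 of the 10, with adjusted p-values of 0.0491 and 0.0490, beside 1.56% of the 19960 genes it tested. All 10 interaction terms were positive after TMM normalization, and 4 of 10 were under total-count scaling. Cell type markers had interaction terms too, above 0 in 25 of 25 acinar (median 1.72), 7 of 7 stroma (0.76), 10 of 10 immune (0.64) and 0 of 4 delta cell markers (-0.44), with none called. Between genotypes on SCD, 0 of 10 immune (median -0.69) and 0 of 7 stroma markers (-0.49) were above 0. So were 3 of 4 delta (0.20) and 2 of 2 PP cell markers (0.41), and none was called. The immune sums on SCD were 71.3 to 73.2 CPM in *Pax4* R192H against 103 to 163 CPM in wildtype mice. The part of all these markers in the result was not tested.

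**Figure D2:**
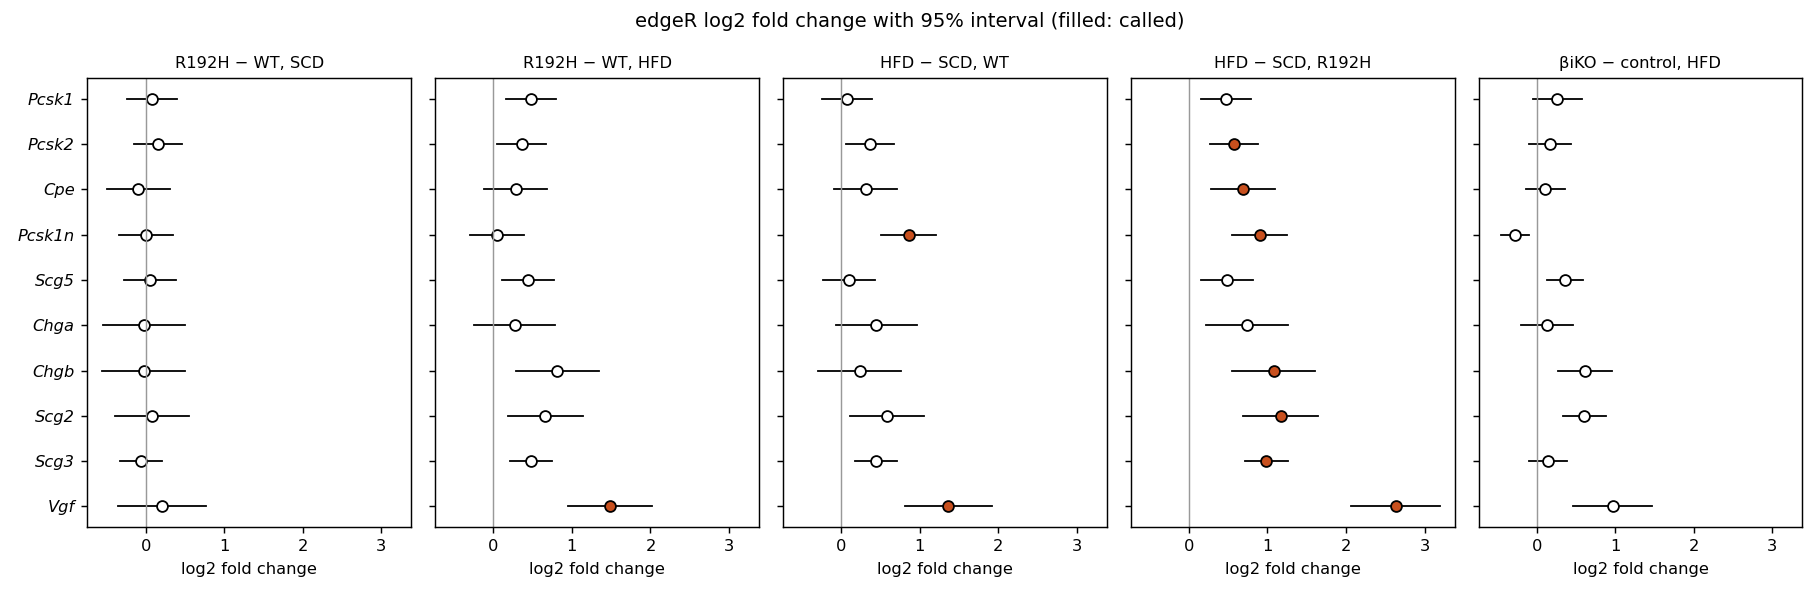
Log2 fold change of each gene with its 95% interval in 5 comparisons, the first named group minus the second; filled points were called. Called points are *Vgf* for R192H on HFD, *Vgf* and *Pcsk1n* for HFD in wildtype mice, and 7 genes for HFD in R192H mice, with none for R192H on SCD or for βiKO.

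*Pcsk1* and *Pcsk2* encode the convertases PC1/3 and PC2. *Pcsk1* (ENSMUSG00000021587, chr13:75089826-75134861, plus strand, GRCm38 with the GENCODE M21 annotation, as for the genes below) was 572 to 800.5 CPM over the 6 mice on SCD. On HFD it was 656, 771 and 747 CPM in wildtype and 929, 1117 and 976 CPM in *Pax4* R192H mice. The wildtype mice stayed within the range of the mice on SCD, and every *Pax4* R192H mouse on HFD was higher. The log2 fold change between genotypes on HFD was 0.48 (SE 0.15, adjusted p = 0.116), which missed the threshold. Under total-count scaling it was 0.09, the genotypes on HFD overlapped, and every *Pax4* R192H mouse on HFD was below every one on SCD. *Pcsk1* was 1224 and 1457 CPM in the control mice and 1778, 1601 and 1451 CPM in the *Pax4* βiKO mice, and the lowest *Pax4* βiKO mouse lay just under the higher control mouse.

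*Pcsk2* (ENSMUSG00000027419, chr2:143546156-143816285, plus strand) was 1694 to 2291 CPM on SCD. On HFD the 3 wildtype mice were close together at 2563, 2594 and 2591 CPM, and the *Pax4* R192H mice were at 3159, 3458 and 3329.9 CPM. Groups on HFD did not overlap, and the log2 fold change was 0.36 (SE 0.14, adjusted p = 0.222) with TMM, while under total-count scaling they overlapped and it was -0.03. The control mice had 3452 and 3607 CPM and the *Pax4* βiKO mice 4021, 3643 and 4260.1 CPM, a log2 fold change of 0.17 (SE 0.12, adjusted p = 0.570).

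*Cpe* (ENSMUSG00000037852, chr8:64592542-64693054, minus strand), the exopeptidase that trims the basic residues, was 1124 to 1722 CPM on SCD. It was 1559, 1971 and 2047 CPM in wildtype and 2109.7, 2623 and 2065 CPM in *Pax4* R192H mice on HFD. The highest wildtype mouse and the lowest *Pax4* R192H mouse were nearly level, and the log2 fold change of 0.29 (SE 0.19, adjusted p = 0.502) turned to -0.09 under total-count scaling. In the second table *Cpe* was 2621 and 2530.4 CPM in control and 2777, 2644 and 2914 CPM in *Pax4* βiKO mice.

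*Pcsk1n*, which encodes the PC1/3 inhibitor proSAAS, followed another pattern (ENSMUSG00000039278, chrX:7919822-7924410, plus strand). On SCD it was 39.0, 50.7 and 52.9 CPM in wildtype and 48.5, 48.1 and 46.6 CPM in *Pax4* R192H mice. On HFD it was 76.5, 77.7 and 105 CPM in wildtype and 90.2, 103 and 74.6 CPM in *Pax4* R192H mice. Every mouse on HFD was above every mouse on SCD, which under total-count scaling held in the wildtype mice alone, and the genotypes overlapped on both diets. The log2 fold change between genotypes on HFD was 0.05 (95% interval -0.30 to 0.40) with TMM and -0.34 under total-count scaling. It was lower in every *Pax4* βiKO mouse, at 54.6, 59.4 and 58.5 CPM, than in the control mice, at 67.9 and 71.5 CPM. That log2 fold change of -0.28 (SE 0.08, adjusted p = 0.266) was not called, and was the only negative one of the 10 in the second table.

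*Scg5* (ENSMUSG00000023236, chr2:113776362-113829121, minus strand) encodes 7B2, the chaperone that PC2 needs to become active. It was 362 to 443 CPM on SCD, 368, 489.9 and 439 CPM in wildtype mice on HFD and 557, 700.1 and 509 CPM in *Pax4* R192H mice on HFD. The last group lay above all others of its table, with a log2 fold change of 0.45 (SE 0.15, adjusted p = 0.156) against wildtype on HFD, but under total-count scaling it overlapped them and the value was 0.06. The control mice had 993 and 1029 CPM and the *Pax4* βiKO mice 1316, 1247 and 1339 CPM. These groups did not overlap either, at a log2 fold change of 0.36 (SE 0.10, adjusted p = 0.257).

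*Chga* and *Chgb* encode chromogranin A and chromogranin B. *Chga* (ENSMUSG00000021194, chr12:102554969-102565028, plus strand) was 2706 to 4305 CPM on SCD, 3733, 5356 and 5998 CPM in wildtype and 5831, 7192 and 5195 CPM in *Pax4* R192H mice on HFD. The genotypes overlapped on HFD, and its log2 fold change of 0.27 (SE 0.24, adjusted p = 0.642) turned to -0.10 under total-count scaling. It was 4347 and 4545 CPM in control and 4828, 4183 and 5614 CPM in *Pax4* βiKO mice, which also overlapped.

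*Chgb* (ENSMUSG00000027350, chr2:132781278-132795079, plus strand) was 413 to 696 CPM on SCD. On HFD it was 510.1, 749.9 and 749.7 CPM in wildtype and 1410.0, 1285 and 840.5 CPM in *Pax4* R192H mice. One *Pax4* R192H mouse was near the wildtype mice and the other two were well above them, and the log2 fold change was 0.81 (SE 0.25, adjusted p = 0.105). Under total-count scaling it was 0.43, still without overlap. With edgeR it was not called, and with DESeq2 its adjusted p was 0.0128. It was 673 and 628 CPM in control and 915, 882 and 1188 CPM in *Pax4* βiKO mice, again without overlap, at a log2 fold change of 0.61 (SE 0.15, adjusted p = 0.220).

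*Scg2* (ENSMUSG00000050711, chr1:79434669-79440120, minus strand), the precursor of secretoneurin, was the most abundant of the 10. On SCD it was 5697, 3466 and 4253 CPM in wildtype and 4303, 4684 and 5201 CPM in *Pax4* R192H mice. On HFD it was 4996, 8141 and 7004 CPM in wildtype and 9857, 11770.0 and 10212 CPM in *Pax4* R192H mice. The *Pax4* R192H mice on HFD were above all others of the table, and the log2 fold change against wildtype on HFD was 0.66 (SE 0.22, adjusted p = 0.141, DESeq2 adjusted p = 0.0201). Under total-count scaling it was 0.30 (adjusted p = 0.268) and the lowest *Pax4* R192H mouse lay below the highest wildtype mouse on HFD. *Scg2* was 11542 and 10012 CPM in control and 15559, 16453 and 17257 CPM in *Pax4* βiKO mice, a wide gap between groups that were each close together. Its log2 fold change there was 0.61 (SE 0.12, adjusted p = 0.163).

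*Scg3* (ENSMUSG00000032181, chr9:75643189-75684056, minus strand), which binds cholesterol-rich granule membrane and chromogranin A, was 486 to 575 CPM on SCD. It was 715, 752 and 761 CPM in wildtype and 1024, 1123 and 954 CPM in *Pax4* R192H mice on HFD. The 3 levels, SCD, wildtype on HFD and *Pax4* R192H on HFD, did not overlap. Its log2 fold change between genotypes on HFD was 0.48 (SE 0.12, adjusted p = 0.0645), the nearest to the threshold of adjusted p among the genes not called. Under total-count scaling the 3 levels overlapped, and the value was 0.08 (adjusted p = 0.755). In the second table it was 1299 and 1206 CPM in control and 1461, 1342 and 1349 CPM in *Pax4* βiKO mice, a log2 fold change of 0.14 (SE 0.10, adjusted p = 0.602).

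*Vgf* (ENSMUSG00000037428, chr5:137026392-137033351, plus strand) was the scarcest and the one with the largest fold changes. On SCD it was 3.50, 2.39 and 4.06 CPM in wildtype and 2.87, 5.24 and 3.40 CPM in *Pax4* R192H mice. On HFD it was 6.40, 10.6 and 8.67 CPM in wildtype and 23.2, 26.3 and 22.0 CPM in *Pax4* R192H mice. The genotypes overlapped on SCD, and on HFD the lowest *Pax4* R192H mouse was far above the highest wildtype mouse. The log2 fold change on HFD was 1.48 (SE 0.25, adjusted p = 0.00983), and it was 1.11 (adjusted p = 0.0369) under total-count scaling. In the second table it was 3.64 and 3.81 CPM in control and 6.97, 6.05 and 8.86 CPM in *Pax4* βiKO mice. Groups did not overlap there, and the log2 fold change of 0.97 (SE 0.21, adjusted p = 0.197) was not called.

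The comparison of diets asked how the genes changed from SCD to HFD within a genotype. It shares its HFD mice with the comparison of genotypes on HFD, so the values of these comparisons are not independent. In wildtype mice, *Vgf* (2.58-fold, SE 0.26 on the log2 scale, adjusted p = 0.0465) and *Pcsk1n* (1.82-fold, SE 0.16 on the log2 scale, adjusted p = 0.0465) were called higher on HFD, 2 of the 10, where 0.371% of all genes were called and 0.204% were called higher. The 71 calls over all genes ranged from 5 without the third to 125 without the first wildtype mouse on HFD. In 4 of the 10, *Vgf*, *Pcsk1n*, *Pcsk2* and *Scg3*, every mouse on HFD was above every mouse on SCD, as for 8.47% of all genes, and under total-count scaling this held for *Vgf* and *Pcsk1n*, beside 2.01%. Both calls were lost under that scaling (adjusted p = 0.0563 for *Vgf* and 0.128 for *Pcsk1n*) and with the acinar covariate (0.0671 for each). Neither call was kept when 1 of 5 of the 6 mice was left out, the exception being the first wildtype mouse on HFD, nor in a fit of these 6 mice alone (adjusted p = 0.171 for *Vgf* and 0.175 for *Pcsk1n*). With 1 mouse left out the log2 fold change was 1.17 to 1.56 for *Vgf* and 0.70 to 0.97 for *Pcsk1n*, and the fit of 6 mice gave values within these ranges. Cell type markers moved with this comparison. The β cell markers summed to 64954 to 93323 CPM on HFD against 44459 to 58812 CPM on SCD without overlap, with 8 of 9 above 0, a median log2 fold change of 0.31 beside 0.41 for the 10 granule genes, and none called. The 7 stroma markers were lower on HFD in wildtype mice, with a median log2 fold change of -1.65 and none called, and summed to 105 to 152 CPM against 123 to 329 CPM on SCD. Of 10 immune markers tested 9 were lower, with a median of -0.92 and 2 called, and the sums of the list were 74.1 to 84.2 CPM against 103 to 163 CPM. Their part in the result was not tested. *Pcsk1* at 0.07 and *Scg5* at 0.10 were nearly level between diets after TMM normalization, with 95% intervals of -0.25 to 0.39 and -0.23 to 0.43. Under total-count scaling each of them turned negative.

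In *Pax4* R192H mice, 7 of the 10 were called higher on HFD, where 15.7% of all genes were called and 9.75% were called higher. The 2996 calls over all genes became 1706 to 2248 with 1 mouse left out, fewest without the second *Pax4* R192H mouse on HFD. Of the 10 genes, 5 to 8 were then called, 5 without that mouse or without the third *Pax4* R192H mouse on SCD. *Vgf* was 6.20-fold higher (log2 fold change 2.63, SE 0.26, adjusted p = 0.00011), *Scg2* 2.24-fold, *Chgb* 2.11-fold, *Scg3* 1.98-fold, *Pcsk1n* 1.87-fold, *Cpe* 1.61-fold and *Pcsk2* 1.49-fold. *Pcsk1* (0.47, SE 0.15, adjusted p = 0.0445) and *Scg5* (0.49, SE 0.15, adjusted p = 0.0436) passed on p and fell short of the fold threshold, and *Chga* (0.74, SE 0.24, adjusted p = 0.0501) missed it on p. In all 10 every mouse on HFD was above every mouse on SCD, as for 21.3% of all genes. Under total-count scaling this held for *Scg2* and *Vgf*, beside 3.16% of all genes. In the same comparison 24 of 25 acinar markers were called higher, and with their level as a covariate none of the 10 was called, at a median log2 fold change of 0.83 beside 0.82 without it. *Vgf* then had 2.33 (SE 0.48, adjusted p = 0.0894). β cell marker sums were 99026 to 110149 CPM on HFD against 49987 to 52152 CPM on SCD, with 3 of 9 called higher and 1 lower. Duct marker sums were 127 to 135 CPM against 79.4 to 103 CPM, with 1 of 7 called higher. The 4 delta cell markers were all below 0, with none called and a mean log2 CPM of 3.61 to 4.12 against 4.26 to 4.31, and that of the 7 stroma markers was 2.57 to 2.91 against 3.04 to 3.97, also with none called. The sum of the 5 α cell markers was 3872 to 5466 CPM against 5641 to 7642 CPM, with 4 of 5 below 0 and none called, and 1 of 6 endothelial markers was called higher. The part of these markers was not tested.

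These directions depend on how the libraries are scaled. Scaling by the total count moved the median of all genes to -0.40 in *Pax4* R192H against wildtype on HFD, to -0.26 in HFD against SCD in wildtype and to -0.79 in HFD against SCD in *Pax4* R192H mice. Under it, *Pcsk1*, *Pcsk2*, *Cpe*, *Scg5* and *Chga* had negative log2 fold changes from SCD to HFD in *Pax4* R192H mice, between -0.02 and -0.25, and *Vgf* alone of the 10 was called, at 1.88. Relative to the median of all genes, all 10 lay higher in each of these 3 comparisons under each scaling. The 10 genes together took 1.79% ± 0.0995 of the counts of a library in wildtype mice on HFD and 1.92% ± 0.168 in *Pax4* R192H mice on HFD (SD, n = 3 each, exact permutation test, two-sided p = 0.3).

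**Figure D3:**
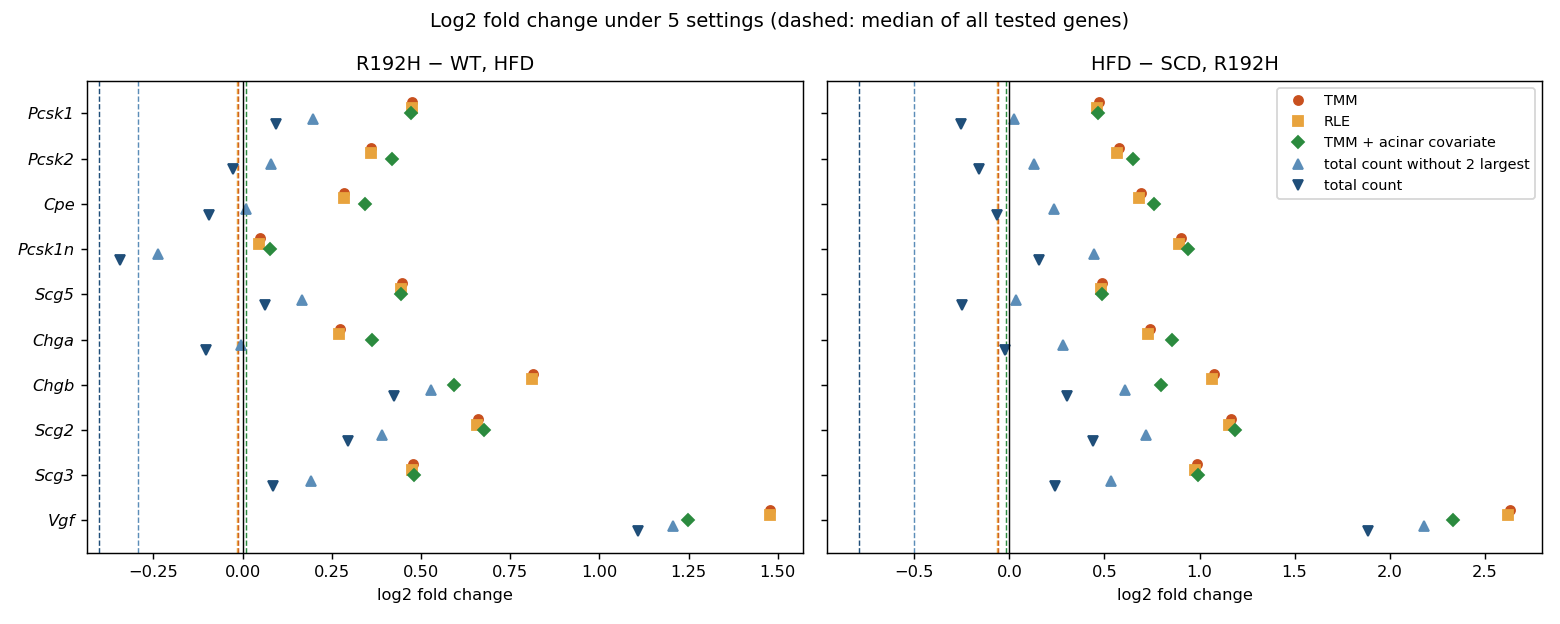
Log2 fold change of each gene under 5 settings, for R192H against WT on HFD (left) and HFD against SCD in R192H mice (right); dashed lines are the median of all tested genes under the setting of the same colour. Under total-count scaling that median lies at -0.40 and -0.79 and the genes shift with it, with *Vgf* at 1.11 and 1.88.

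A measure that no library scaling can move is the make-up of the 10 genes, each as a percent of their summed counts. These shares have the same sum in every library, so a higher share of *Scg2* lowers the others and they are not separate results. On HFD, *Scg2* made up 40.6% ± 1.47 against 35.4% ± 3.16 (mean ± SD, *Pax4* R192H against wildtype, n = 3 each) and *Vgf* 0.0912% ± 0.00171 against 0.0451% ± 0.00489. Both were higher in every *Pax4* R192H mouse. *Chga* made up 23.1% ± 1.50 against 26.5% ± 2.50, *Cpe* 8.64% ± 0.253 against 9.90% ± 0.432 and *Pcsk1n* 0.340% ± 0.0278 against 0.463% ± 0.0792, each lower in every *Pax4* R192H mouse. The exact permutation test gave p = 0.1 for each of these 5 of the 10 shares, two-sided and the smallest that 3 against 3 mice allow. *Pcsk1*, at 3.85% ± 0.167 against 3.89% ± 0.375, and *Scg3*, at 3.95% ± 0.139 against 4.01% ± 0.610, overlapped.

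In *Pax4* βiKO against control mice the same measure gave 49.2% ± 1.93 against 42.0% ± 2.91 for *Scg2*, 0.0217% ± 0.00309 against 0.0145% ± 0.000922 for *Vgf* and 2.97% ± 0.334 against 2.53% ± 0.0453 for *Chgb*, each higher in every *Pax4* βiKO mouse (n = 3 against 2). *Chga* made up 14.5% ± 1.41 against 17.3% ± 1.09, *Cpe* 8.32% ± 0.146 against 10.04% ± 0.0636, *Pcsk1n* 0.173% ± 0.0112 against 0.272% ± 0.0184, *Pcsk2* 11.9% ± 0.477 against 13.8% ± 0.857 and *Scg3* 4.15% ± 0.331 against 4.88% ± 0.104, each lower in every *Pax4* βiKO mouse. The exact permutation p was 0.2 for each of the 8, two-sided and the smallest that 3 against 2 mice allow. These shares too are bound by their sum, so the 8 are not separate results.

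**Figure D4:**
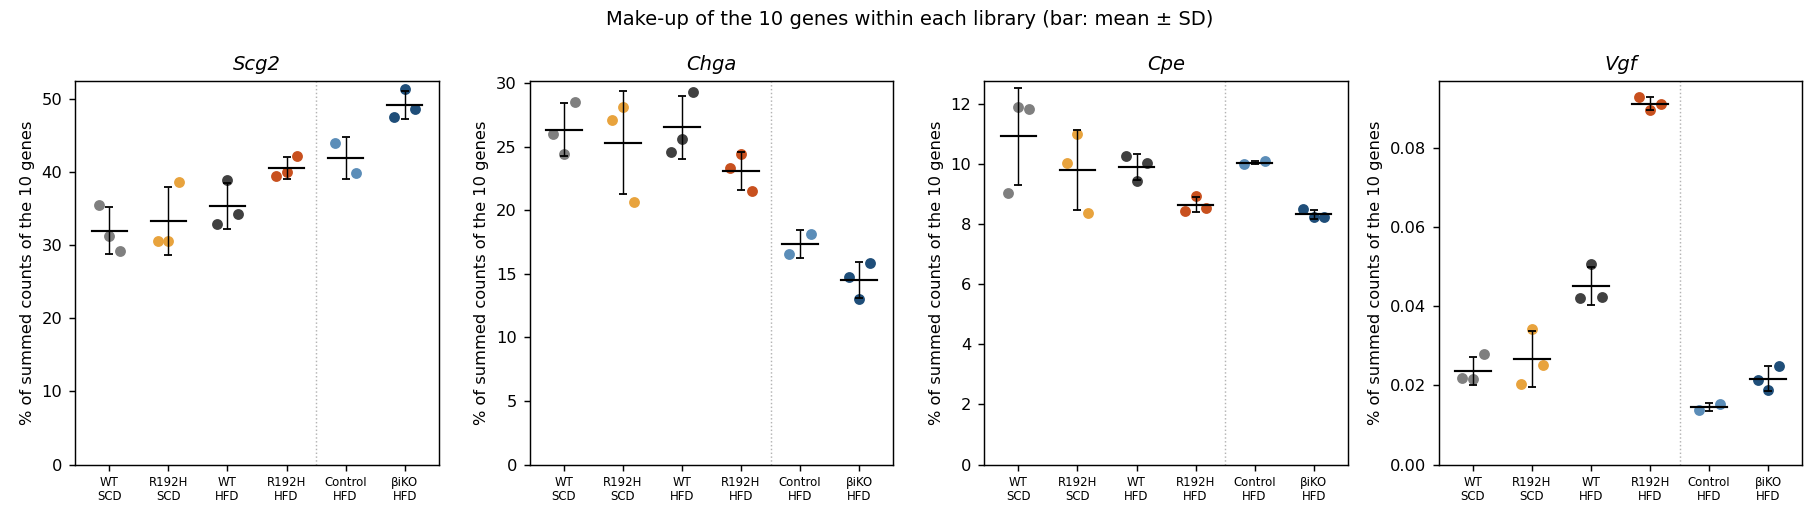
Percent of the summed counts of the 10 genes that *Scg2*, *Chga*, *Cpe* and *Vgf* took in each mouse (points), with the mean ± SD as bars; the dotted line separates the tables. *Scg2* is higher, and *Chga* and *Cpe* are lower, in every R192H mouse than in every wildtype mouse on HFD, and likewise in every βiKO mouse than in every control mouse.

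The knockout comparison asked whether loss of *Pax4* in adult β cells changed the genes on HFD. None of the 10 was called with edgeR, beside 0.0893% of all 20167 genes (18, and 2 to 28 with 1 mouse left out), and 5 had an unadjusted p below 0.05 (12.8% of all). DESeq2 called *Vgf*, *Scg2* and *Chgb*, 3 of the 10 beside 2.04% of the 12243 genes it tested. In 7 of the 10 every *Pax4* βiKO mouse was above both control mice (15.9% of all genes), which held for 5 under total-count scaling (11.7% of all genes), and in 1, *Pcsk1n*, every one was below (16.7%). The median log2 fold change was 0.22, beside 0.01 over all genes. Acinar marker sums overlapped here, at 19211 to 95542 CPM in *Pax4* βiKO and 27449.6 to 121195 CPM in control mice, and 23 of the 25 markers were below 0, with a median log2 fold change of -0.67 and none called. The β cell markers did not overlap, with sums of 131728 to 137246 CPM against 120736 to 131606 CPM and a mean log2 CPM of 10.22 to 10.28 against 10.44 to 10.56. Sums of 4 other lists were higher in every *Pax4* βiKO mouse, at 259 to 302 CPM against 239 to 244 CPM for the 6 endothelial markers, all of them above 0 with a median log2 fold change of 0.25, 275 to 363 CPM against 242 to 258 CPM for the stroma markers, 258 to 319 CPM against 208 to 210.2 CPM for the duct markers, of which 2 of 7 were above 0 with a median of -0.24, and 13976 to 14201 CPM against 10846 to 13927 CPM for the 5 α cell markers. Of the stroma markers 6 of 7 were above 0, with a median of 0.34. Of 10 immune markers tested 9 were above 0 (median 0.24), as were 2 of 2 PP cell markers (0.33), and the sums of the immune and PP lists overlapped. None of the genes of these lists was called, and their part in the result was not tested. No gene of the 10 changed sign under total-count scaling, whose median over all genes was 0.03.

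Related genes are given after TMM normalization, and a turn of direction under total-count scaling is named. Among 11 other processing enzymes, *Pam*, which amidates the ends of peptides, was called higher in *Pax4* R192H mice on HFD, at 1201 to 1464 CPM against 723 to 866 CPM in wildtype, a log2 fold change of 0.74 (SE 0.14, adjusted p = 0.0182). *Pcsk6*, a convertase of the constitutive pathway, was called lower, at 4.70 to 5.06 CPM against 8.26 to 12.5 CPM, with -1.13 (SE 0.17, adjusted p = 0.00639). From SCD to HFD in *Pax4* R192H mice, *Pam* was called higher at 1.01 (SE 0.14, adjusted p = 0.00064), *Qpctl*, a glutaminyl cyclase, higher at 1.03 (SE 0.18, adjusted p = 0.00207), and *Pcsk6* lower at -0.68 (SE 0.17, adjusted p = 0.0177). The other enzymes of the list, *Furin* among them, were not called in either comparison. Of all genes, 2.28% were called between genotypes on HFD and 15.7% between diets in *Pax4* R192H mice. *Pam* was 1709 to 1992 CPM against 1224 to 1231 CPM in *Pax4* βiKO against control mice, without overlap, at 0.59 (SE 0.11, adjusted p = 0.161). On SCD, *Pam* differed by 0.08 (SE 0.14, adjusted p = 1).

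Of 22 granule biogenesis genes, *Arfip2*, which shapes granules at the Golgi, was called higher in *Pax4* R192H mice on HFD at 0.80 (SE 0.12, adjusted p = 0.00588), and *Slc30a8*, the granule zinc transporter, was called lower at -0.61 (SE 0.14, adjusted p = 0.0432). No other of the 22 was called between genotypes on HFD, where 2.28% of all genes were called. From SCD to HFD in *Pax4* R192H mice 6 of the 22 were called higher, 3 of which (*Ica1*, *Hid1* and *Eipr1*) were below 0 under total-count scaling, and 1 was called lower, beside the 9.75% of all genes that were called higher and the 15.7% called in all. The log2 fold change was 1.14 (SE 0.12, adjusted p = 0.00015) for *Arfip2*, 1.19 (SE 0.17, adjusted p = 0.00077) for *Ptprn*, which encodes the granule membrane protein IA-2, 0.80 (SE 0.15, adjusted p = 0.00314) for *Sdf4* and -0.90 (SE 0.14, adjusted p = 0.00141) for *Slc30a8*. Of 23 genes of granule acidification none was called between genotypes on HFD. Between diets in *Pax4* R192H mice 3 were called higher and 2 lower, 5 of 23 beside 15.7% of all genes, and of the higher ones *Atp6ap1* and *Atp6v0c* were below 0 under total-count scaling. The proton pump subunit gene *Atp6v0e2* was at 0.97 (SE 0.13, adjusted p = 0.00054) and the pump accessory gene *Atp6ap1* at 0.59 (SE 0.16, adjusted p = 0.0248). The lower ones were *Dmxl1* at -0.86 (SE 0.14, adjusted p = 0.00145) and *Dmxl2* at -0.63 (SE 0.14, adjusted p = 0.00899), whose products regulate pump assembly.

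The substrates of these enzymes differed in their pattern. Between genotypes on HFD, *Ins1* had a log2 fold change of 0.13 (SE 0.23, adjusted p = 0.852), which was -0.24 under total-count scaling, and *Ins2* had 0.38 (SE 0.24, adjusted p = 0.472). *Gcg* had -0.06 (SE 0.23, adjusted p = 0.940) and *Sst* had -0.07 (SE 0.16, adjusted p = 0.883). *Nucb2*, the precursor of nesfatin, was the only 1 of 13 substrates tested that was called there, where 2.28% of all genes were called and 1.46% were called higher. It was at 545 to 617 CPM against 157 to 282 CPM in wildtype mice, a log2 fold change of 1.45 (SE 0.24, adjusted p = 0.00821). From SCD to HFD in *Pax4* R192H mice 5 of the 13 were called higher, beside 9.75% of all genes, with *Nucb2* at 1.94 (SE 0.24, adjusted p = 0.00032), *Ins2* at 1.17 (SE 0.24, adjusted p = 0.00560), *Ins1* at 1.01 (SE 0.24, adjusted p = 0.0111) and *Iapp* at 0.87 (SE 0.21, adjusted p = 0.0114). *Gcg* did not follow, at -0.49 (SE 0.23, adjusted p = 0.167), and *Sst* was at -0.09 (SE 0.16, adjusted p = 0.724). In *Pax4* βiKO against control mice *Ins1* was at 0.13 (SE 0.19, adjusted p = 0.804), *Ins2* at -0.08 (SE 0.11, adjusted p = 0.805), *Gcg* at 0.19 (SE 0.13, adjusted p = 0.587) and *Sst* at 0.01 (SE 0.12, adjusted p = 0.977). On SCD the genotypes differed by -0.02 (SE 0.23, adjusted p = 1) in *Ins1*, which was 0.09 under total-count scaling, 0.13 (SE 0.24, adjusted p = 1) in *Ins2*, 0.19 (SE 0.23, adjusted p = 1) in *Gcg* and 0.28 (SE 0.16, adjusted p = 1) in *Sst*.

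Among 15 regulators of granule genes, such as *Rest*, the repressor of neuronal and endocrine genes, none was called between genotypes on HFD or in *Pax4* βiKO mice, beside 2.28% and 0.0893% of all genes. *Creb1*, which binds the CRE, was called lower from SCD to HFD in *Pax4* R192H mice at -0.72 (SE 0.13, adjusted p = 0.00275), and *Insm1*, an endocrine transcription factor, was called higher at 0.63 (SE 0.14, adjusted p = 0.00935) but was at -0.10 under total-count scaling. No other of the 15 was called in that comparison, where 15.7% of all genes were called. None of the 5 lists had a called gene on SCD, between diets in wildtype mice, in the interaction or in *Pax4* βiKO mice.

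Over the 12 mice of the first table, the genes nearest to a member in the shape of their log2 CPM profile, by Euclidean distance after each was standardized, differed from member to member. For *Vgf* they were *Rab3d* (distance 0.637), *Tmem59l* (0.671) and *Qsox1* (0.757), and *Scg3* (0.753) was nearest among the 10. For *Scg3* they were *Tmem59l* (0.469), *Etfb* (0.653) and *Tstd3* (0.660), and for *Scg2* *Dio1* (0.474), *Vamp8* (0.540) and *Gnat2* (0.603). *Pcsk1* and *Scg5* were each other's nearest member at 1.17, and both had the ribosomal protein gene *Rpsa* as their nearest gene of all, at 1.02 and 1.03. *Pcsk1n* stood farthest from the others, its nearest member being *Scg3* at 1.77. The mice share groups and library scaling, so these distances are descriptions.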

How the data were processed

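The 17 bulk RNA-seq libraries of islets isolated from male mice were analysed in 2 tables, grouped by their sample names, with no sample left out. Both deposited tables hold expected counts: the authors sequenced stranded total RNA libraries, aligned them with STAR (v2.7.1, mm10 build), quantified transcripts with RSEM (v1.3.3) and summed these to genes with tximport. They are not scaled for depth. They were rounded here to whole numbers. GENCODE M21 named 65.8% and 66.7% of the identifiers of the 2 tables, including all 10 genes.

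The tests used edgeR v4.0.16 in R v4.3.3, with filterByExpr at a minimum count of 10, TMM factors, 1 model with a coefficient per group for each table, and the quasi-likelihood F-test over all 19137 or 20167 genes tested. Log2 CPM used a prior count of 2. Shares were compared by exact permutation over mice. The genes and lists were chosen with earlier results of these data known. All 10 genes were named in the comparisons, and from each list of related genes at most 4 called genes by smallest p, together with *Ins1*, *Ins2*, *Gcg*, *Sst* and *Pam*. The half-site search was added after the sequences were seen. Tests were tried on simulated data with 200 changed genes. In the simulated HFD comparison of genotypes 71.4% of log2 changes of 2 and 36.4% of log2 changes of 1 were recovered, and 7 of 113 called genes were unchanged ones, and for the knockout these were 85.4%, 51.6% and 10 of 136.

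The labels call the libraries biological replicates, and each was taken as 1 mouse. The smallest share taken as detected, 3 counts, is at most 1.24e-05% of a library and covers counting error only. Alternatives were RLE factors, no filter, total-count scaling, leaving out the 2 largest identifiers, an acinar covariate, the replicate number as a block, DESeq2 v1.42.0, fits of 2 groups and leaving out each mouse. Total-count scaling was added after seeing the data. Amino acid sequences were not used here.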

Additional observations from a re-analysis of the deposited data

How the results depend on the processing

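In *Pax4* R192H against wildtype mice on HFD, 1 of the 10 genes was called, against 2 without a filter, 3 with DESeq2 and 0 with the acinar covariate, and 0 to 1 when 1 mouse was left out. For the interaction 0 were called, against 1 without a filter and 2 with DESeq2. For HFD against SCD in wildtype mice 2 were called, against 0 with the replicate number as a block, with the acinar covariate, under total-count scaling or in a fit of the 2 groups, 1 under total-count scaling without the 2 largest identifiers, and 0 to 2 when 1 mouse was left out. In *Pax4* R192H mice 7 were called from SCD to HFD, against 0 with the acinar covariate, 1 under total-count scaling, 4 under that scaling without the 2 largest identifiers, and 5 to 8 when 1 mouse was left out. For *Pax4* βiKO against control 0 were called, against 3 without a filter, 3 with DESeq2 and 1 (*Scg2*, adjusted p = 0.0493) with the replicate block.

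Under total-count scaling, log2 fold changes turned to -0.0284 for *Pcsk2*, -0.0950 for *Cpe*, -0.34 for *Pcsk1n* and -0.10 for *Chga* between genotypes on HFD. They turned to -0.21 for *Pcsk1*, -0.18 for *Scg5* and -0.0534 for *Chgb* between diets in wildtype mice, and to -0.25 for *Pcsk1*, -0.16 for *Pcsk2*, -0.0670 for *Cpe*, -0.25 for *Scg5* and -0.0227 for *Chga* between diets in *Pax4* R192H mice. Without the 2 largest identifiers as well, they were -0.24 for *Pcsk1n* and -0.00383 for *Chga* between genotypes on HFD, and -0.0569 for *Pcsk1* and -0.0348 for *Scg5* between diets in wildtype mice. With 1 mouse left out, the range was -0.240 to 0.0475 for *Cpe* and -0.0876 to 0.416 for *Vgf* between genotypes on SCD, -0.0688 to 0.213 for *Pcsk1n* between genotypes on HFD, -0.0437 to 0.148 for *Pcsk1* between diets in wildtype mice, and -0.0198 to 0.285 percentage points for the summed share of the 10 genes between genotypes on SCD.

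Replicate numbers did not pair the mice, since the correlations of same-numbered mice lay between -0.30 and 0.19 in the first table, and the block changed no other call of the 10 genes. With 3 mice a group, and 2 control mice, log2 changes of 1 were often missed in the simulated data.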
